A study of Mus musculus with 8 samples.

Results

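Immediate early genes are switched on within minutes of a stimulus, from factors already present in the cell, and their mRNAs are short-lived. Most encode transcription factors. JUN proteins pair with FOS or ATF proteins through a leucine zipper to form AP-1, which binds DNA and acts downstream of the ERK, JNK and p38 MAP kinases. In the preimplantation embryo the ERK pathway is known for separating epiblast from primitive endoderm, and immediate early genes are widely used as readouts of stress and of handling.

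The genes described here were chosen by symbol from the deposited expression table: Jun, Junb, Jund, Fos, Egr1, Ier2, Ier3, Atf3, Myc and Klf6. All 10 were in the table of 19688 genes. RNA was sequenced from mouse blastocysts, embryos with a cavity, a trophectoderm around it and an inner cell mass. One group was vitrified, which turns the embryo solid without ice crystals, and the media for vitrification and thawing held melatonin at 1e-10 M (3 libraries, called melatonin-vitrified). A second was vitrified without melatonin (3 libraries, called vitrified), and the control was fresh, never vitrified (2 libraries, labelled IVF in the table). The sources used here do not give strain, age or the number of embryos per library, or say whether replicates came from separate animals or cultures. The p-values therefore measure the spread between these libraries, which may be technical.

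Values are FPKM, fragment numbers divided by the transcript's length and the library's total, so levels can be compared between genes. Whole-number steps in the values of 4978 genes with a single annotated transcript gave an estimated 5815000 to 9996000 fragments per library, and 1 FPKM of a 2 kb transcript stood for 11.6 to 20.0 fragments. Markers of all 3 blastocyst lineages were present: 8 of 8 trophectoderm, 6 of 8 epiblast and 8 of 8 primitive endoderm markers reached 1 FPKM in at least 2 libraries. Of other cell types, 0 of the 3 cumulus and granulosa markers, 0 of the 4 fibroblast markers, 1 of the 3 blood markers and 1 of the 4 sperm markers in the table did so. Cumulus and granulosa markers summed to 0.0 to 0.231 FPKM in melatonin-vitrified, 0.307 to 1.39 in vitrified and 0.185 to 0.503 in fresh libraries. Blood markers summed to 2.57 to 3.90 FPKM in melatonin-vitrified, 5.20 to 7.27 in vitrified, and 1.45 and 2.35 in fresh libraries. Epiblast markers summed to 133.5 to 154 FPKM in melatonin-vitrified, 131 to 165 in vitrified, and 21.5 and 72.4 in fresh libraries. Fresh replicate 1 stood apart on the first principal component, at -52.5 against -14.2 for fresh replicate 2 and 3.29 to 18.4 for the other 6. Genes above 0 numbered 14544 to 14889 in melatonin-vitrified, 15749 to 16400 in vitrified, and 14260 and 14741 in fresh libraries. Their part in the results below was not tested.

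Promoter sequence was taken from RefSeq (build GRCm38.p6), which held windows for 7 of the 10 genes: Atf3, Fos, Ier3, Jun, Junb, Jund and Klf6. Each window runs from 250 bases before to 50 bases after the annotated transcript start. Windows of Jun and Klf6 are shown because both hold TGACATCA, the AP-1 site known from the human JUN promoter. That of Junb is shown as the JUN family member whose level differed least between melatonin-vitrified and vitrified embryos, and that of Ier3 for its wide range over libraries. Sequences run 5' to 3', bases within annotated exons are left off, and capitals mark TGACATCA, CCAAT (or ATTGG on the other strand) and CACGTG.
Jun (chr4:95052223-95052472, minus strand, mm10): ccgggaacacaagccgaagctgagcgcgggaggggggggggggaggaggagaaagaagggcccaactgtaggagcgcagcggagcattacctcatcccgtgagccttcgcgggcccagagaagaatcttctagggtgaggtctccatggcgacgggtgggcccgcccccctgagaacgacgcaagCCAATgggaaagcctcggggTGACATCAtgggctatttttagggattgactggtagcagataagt
Klf6 (chr13:5861239-5861481, plus strand, mm10): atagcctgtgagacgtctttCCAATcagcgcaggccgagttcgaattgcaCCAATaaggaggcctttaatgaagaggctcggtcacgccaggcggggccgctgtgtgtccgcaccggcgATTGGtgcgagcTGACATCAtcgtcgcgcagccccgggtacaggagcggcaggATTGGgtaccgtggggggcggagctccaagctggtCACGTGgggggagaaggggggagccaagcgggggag
Junb (chr8:84978749-84978998, minus strand, mm10): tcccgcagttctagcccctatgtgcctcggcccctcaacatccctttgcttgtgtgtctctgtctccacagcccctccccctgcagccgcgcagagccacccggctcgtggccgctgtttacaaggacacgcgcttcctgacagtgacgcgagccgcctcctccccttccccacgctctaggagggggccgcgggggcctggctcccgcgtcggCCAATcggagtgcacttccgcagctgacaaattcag
Ier3 (chr17:35821463-35821683, plus strand, mm10): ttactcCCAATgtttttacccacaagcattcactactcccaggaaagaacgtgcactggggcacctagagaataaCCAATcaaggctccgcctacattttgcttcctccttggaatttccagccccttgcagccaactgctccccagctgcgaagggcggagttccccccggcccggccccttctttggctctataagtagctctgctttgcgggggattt

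TGACATCA lay at -45 to -38 of the Jun start and at -119 to -112 of the Klf6 start, counted with the last base before the start as -1. Of 32851 RefSeq windows of 300 bases, 3.62% held it on either strand. CCAAT, the site bound by the factor NF-Y, was in the windows of Jun, Junb, Ier3, Klf6 and Atf3, and in 37.4% of all windows. The E-box CACGTG, a site for MYC and MAX, was in that of Klf6 alone, against 7.15% of all windows. The TATAAA of Fos at -33 to -28 and that of Junb at the start itself had a background of 13.6%. Motifs were searched on both strands. GGGCGG was in the windows of Atf3, Fos, Ier3, Jun and Klf6 and in 35.7% of all windows. The searches for TGACGTCA (1.79% of all windows), TGAGTCA (5.20%), CCGGAAG (8.86%) and the CArG box of serum response factor (1.63%) found no match in these 7 windows. The Jund window held no match to any of the motifs searched. Its RefSeq start lies 1210 bases before the GENCODE start. No motif match here shows binding, and a motif may lie outside a window.

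Short-lived mRNAs often carry AU-rich elements with the core ATTTA in their 3' untranslated region. A stretch of 30 bases with the most ATTTA cores in this region (longest coding transcript, GENCODE M21) is shown for Jun, Ier3, Fos and Jund, with the cores in capitals, because their density of cores per kb differs. They lie at bases 1031 to 1060 of 1233 in Jun, 174 to 203 of 613 in Ier3, 642 to 671 of 815 in Fos and 275 to 304 of 533 in Jund, counted from the stop codon.
Jun: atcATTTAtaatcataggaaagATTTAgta
Ier3: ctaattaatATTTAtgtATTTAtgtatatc
Fos: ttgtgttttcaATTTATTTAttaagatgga
Jund: ccgattccgccctATTTAtgtttctactcg

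Ier3 had the densest set, with 5 cores in 613 bases or 8.16 per kb, a density above that of 98.6% of the 9078 tested genes with a 3' untranslated region of at least 100 bases. Fos had 4.91, Myc 4.52, Junb 4.12, Jun 3.24, Atf3 2.53, Klf6 2.25, Jund 1.88 and Egr1 1.65 cores per kb, and all of these lay above the median of 1.35. Ier2 had 0 cores in 755 bases.

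Melatonin-vitrified embryos were compared with vitrified ones to ask what melatonin in the vitrification and thawing media changes. Jun, the founding subunit of AP-1 (chromosome 4, 95049034 to 95052222, a gene of 1 exon), was lower in melatonin-vitrified than in vitrified libraries. To be tested, a gene needed 1 FPKM in 2 or more libraries, which Jun reached only in vitrified and fresh ones. Its values were 0.176, 0.320 and 0.488 FPKM in melatonin-vitrified libraries, against 2.99, 3.84 and 2.41 FPKM in vitrified ones and 1.29 and 1.29 FPKM in fresh ones. Every melatonin-vitrified library lay below every other library, and every vitrified library above. The means were 0.328 ± 0.157 FPKM in melatonin-vitrified and 3.08 ± 0.720 FPKM in vitrified embryos (SD, n = 3 each). The log2 fold change on the scale of log2(FPKM + 1) was -1.61 ± 0.21 (SE), with a limma adjusted p of 0.0246. On this scale a low gene's change is smaller than its ratio of FPKM, which was 0.106 for the group means. Whole embryos were measured, so fewer cells with Jun mRNA and less of it per cell cannot be told apart.

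Jun was measured with few fragments. At its annotated length of 3189 bases the values corresponded to 4, 6 and 11 fragments in melatonin-vitrified libraries, 67, 84 and 63 in vitrified libraries, and 41 and 24 in fresh ones. The 95% exact Poisson intervals, which cover counting error only, reached up to 10.2, 13.1 and 19.7 fragments in melatonin-vitrified libraries and down to 51.9, 67.0 and 48.4 in vitrified ones. They did not overlap between these groups, while those of melatonin-vitrified replicate 3 and fresh replicate 2 did (19.7 at the high end of the one and 15.4 at the low end of the other). Junos, a noncoding gene on the opposite strand that overlaps 689 bases of Jun, was at 0.0573 to 0.174 FPKM in melatonin-vitrified, 0.175 to 0.299 FPKM in vitrified and 0.0409 and 0.106 FPKM in fresh libraries. Whether the counting used strand is not stated.

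**Figure D1:**
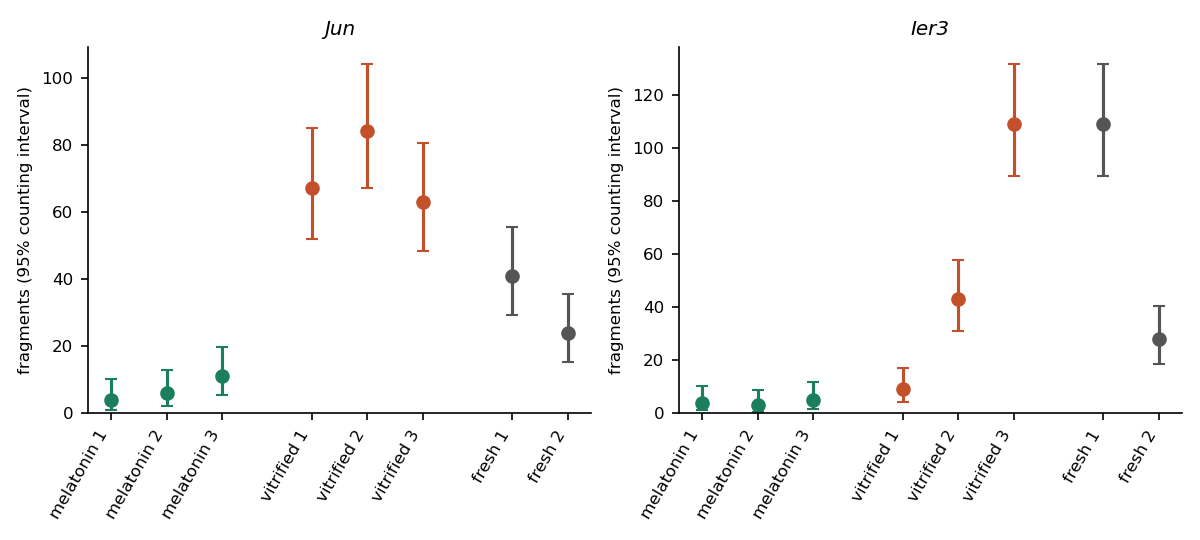
Estimated fragments of Jun (left) and Ier3 (right) in each library, with 95% exact Poisson intervals; the horizontal axis gives group and replicate. For Jun the melatonin-vitrified libraries have 4 to 11 fragments and the vitrified ones 63 to 84, while Ier3 spans 9 to 109 fragments within the vitrified group.

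Of the 9 members tested, 1 was called in this comparison, and over all 10755 tested genes 0.139% were called (0.0279% higher and 0.112% lower; 15 genes, 3 higher and 12 lower). The Jun call was sensitive to single libraries. Leaving out any of the 6 libraries compared gave adjusted p between 0.0532 and 0.103, with log2 fold changes of -1.73 to -1.48. Over all 17 other settings in which Jun was tested, the log2 fold change lay between -2.94 and -1.40, the limma adjusted p between 0.0177 and 0.286, and 6 kept the call.

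**Figure D2:**
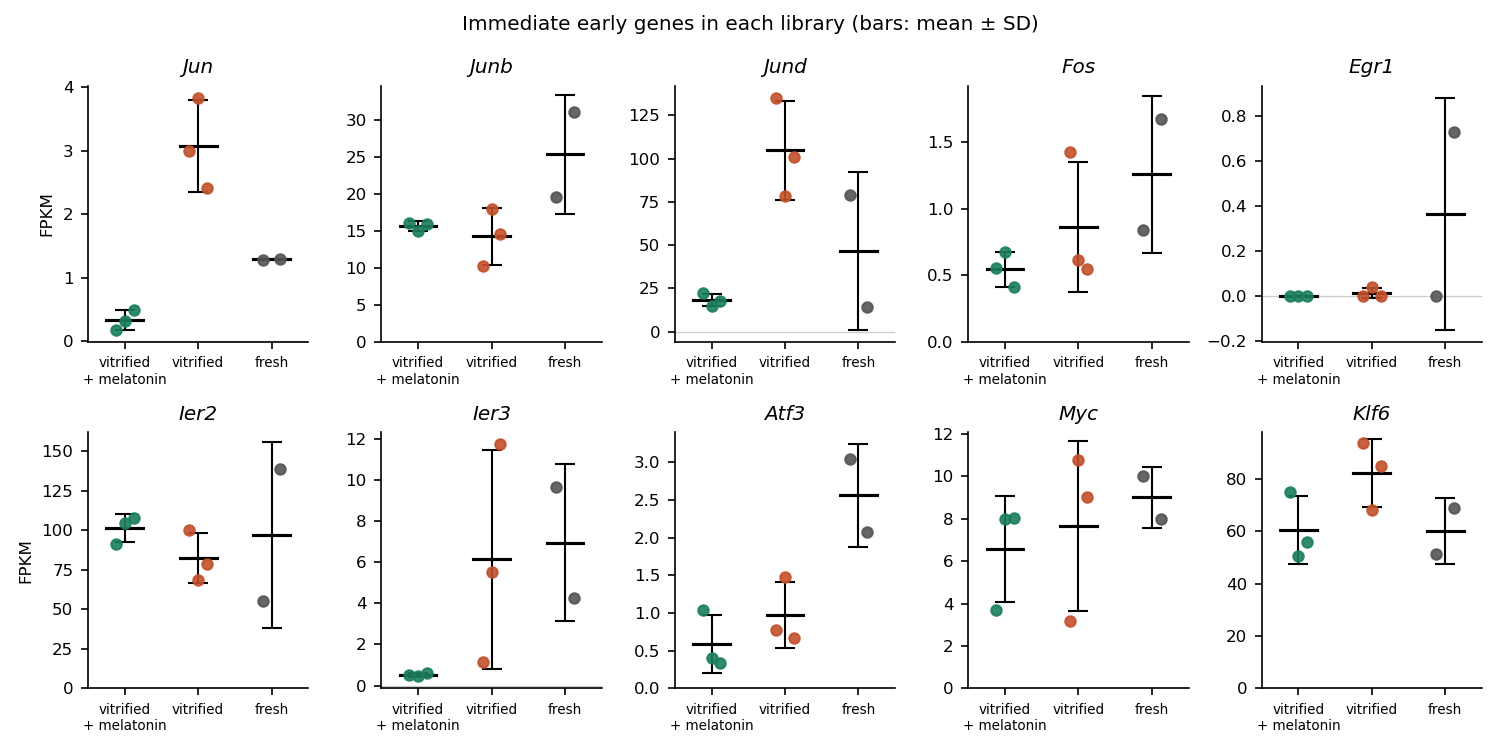
FPKM of each of the 10 genes (vertical axis, own scale in each panel) by group on the horizontal axis. Points are libraries, the horizontal line is the mean and the bars are the SD (n = 3, 3 and 2); Jun and Jund are lower in all melatonin-vitrified than in all vitrified libraries.

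Jund, the JUN family member usually expressed without a stimulus (chromosome 8, 70698949 to 70700616, also 1 exon), had the largest log2 fold change of the 9 but did not pass. It was at 22.0, 15.0 and 17.7 FPKM in melatonin-vitrified libraries, against 135, 78.5 and 100.7 FPKM in vitrified ones. In fresh libraries it was at 78.9 FPKM in replicate 1 and 14.2 FPKM in replicate 2. Fresh replicate 1 thus lay within the vitrified range and fresh replicate 2 below every melatonin-vitrified library. The second principal component of all tested genes showed a like split, with melatonin-vitrified libraries at -26.2 to -14.5 beside fresh replicate 2 at -15.4, and vitrified libraries at 6.76 to 34.8 beside fresh replicate 1 at 8.08. The fold change between melatonin-vitrified and vitrified was -2.44 ± 0.50 (SE, log2), with a limma adjusted p of 0.108. In a fit of these 2 groups alone, where the unequal fresh libraries do not enter the spread, the adjusted p was 0.00831. That fit called 69 of all tested genes, against 15 in the fit of all 8 libraries. Of the 18 other settings, 3 called Jund, with adjusted p from 0.00831 to 0.288. After removal of trends in GC content and length per library, a setting chosen after seeing the data, the Jund difference was -2.29 (adjusted p = 0.0906); its transcript holds 67.2% G and C.

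Gm11175, an antisense gene, overlaps 919 of the 1668 bases of Jund. It was at 47.2, 38.5 and 49.0 FPKM in melatonin-vitrified, 307, 169.9 and 232 FPKM in vitrified, and 186 and 31.7 FPKM in fresh libraries. Its ratio to Jund was 2.14 to 2.77 in every library, so both genes varied together. Since use of strand in the counting is not stated, the Jund values may hold fragments of Gm11175 or the reverse, and the FPKM values cannot show which.

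Junb, a JUN protein that often opposes Jun at shared sites (chromosome 8, 84974484 to 84978718), did not follow Jun and Jund. It was at 16.1, 15.0 and 16.0 FPKM in melatonin-vitrified libraries, against 10.2, 17.98 and 14.6 FPKM in vitrified ones, with a log2 fold change of 0.16 ± 0.23 (SE, limma adjusted p = 0.775). The groups overlapped. Its end overlaps 351 bases of Prdx2 on the opposite strand, which was at 20.4 to 27.2 FPKM in melatonin-vitrified, 28.2 to 49.8 FPKM in vitrified, and 38.3 and 29.6 FPKM in fresh libraries.

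FPKM is per length, so the makeup of the JUN family can be read within each library, without scaling between libraries. Jund made up 57.5%, 49.4% and 51.8% of the summed FPKM of Jun, Junb and Jund in melatonin-vitrified libraries, against 91.1%, 78.2% and 85.5% in vitrified libraries. In fresh replicates 1 and 2 it made up 79.0% and 30.4%. The ratio of Jund to Junb was 1.37, 0.999 and 1.11 in melatonin-vitrified libraries, against 13.2, 4.37 and 6.88 in vitrified ones, and 4.01 and 0.455 in fresh ones. Jun itself made up 0.458% to 1.43% in melatonin-vitrified libraries, against 2.02% to 3.83% in vitrified ones and 1.29% and 2.78% in fresh ones. By these values the JUN family was mostly Jund in vitrified libraries, with similar Jund and Junb in melatonin-vitrified ones, and the fresh libraries differed. The shares and ratios carry the limit given above: Jund values may hold fragments of Gm11175. Junb likewise overlaps Prdx2, and whether strand was used is not stated.

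**Figure D3:**
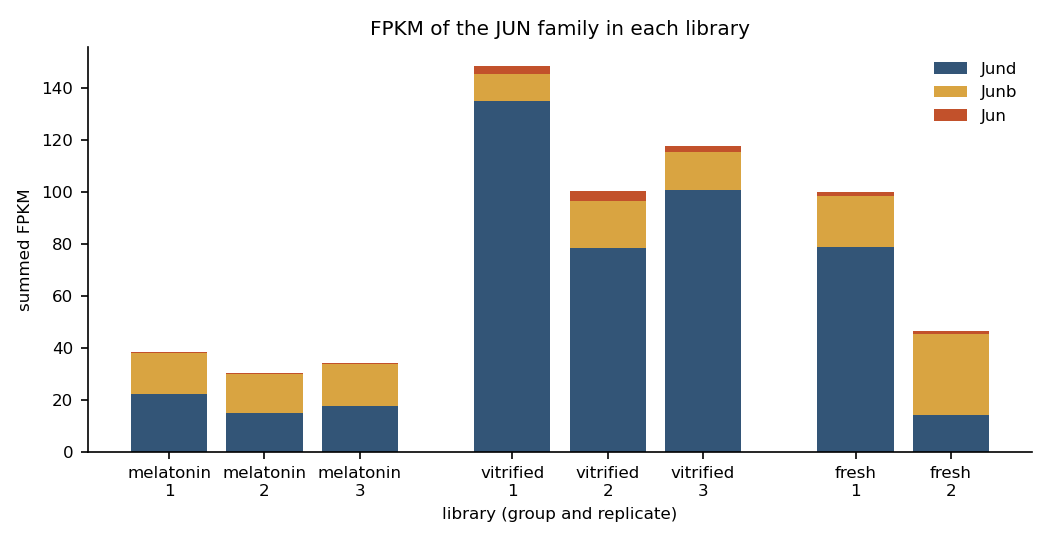
Summed FPKM of Jund, Junb and Jun (vertical axis, stacked) in each library (horizontal axis, group and replicate). The total is 30.2 to 38.3 FPKM in melatonin-vitrified, 100.3 to 148 FPKM in vitrified, and 99.8 and 46.6 FPKM in fresh libraries.

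Fos, the classic partner of Jun (chromosome 12, 85473890 to 85477273), was near 1 FPKM throughout. It was at 0.554, 0.673 and 0.411 FPKM in melatonin-vitrified libraries, against 1.43, 0.615 and 0.546 FPKM in vitrified ones, and the groups overlapped (log2 fold change -0.24 ± 0.25, SE, limma adjusted p = 0.678). Atf3, a stress-induced partner of JUN proteins (chromosome 1, 191170296 to 191218039), was at 1.04, 0.398 and 0.331 FPKM in melatonin-vitrified libraries, against 0.778, 1.48 and 0.666 FPKM in vitrified ones. Its groups also overlapped (log2 fold change -0.32 ± 0.26, SE, adjusted p = 0.583).

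Egr1, a zinc finger factor and a standard readout of ERK signalling (chromosome 18), was too low to test. It was listed at 0 in all 3 melatonin-vitrified libraries, in vitrified replicates 1 and 3 and in fresh replicate 1. Vitrified replicate 2 had 0.0388 FPKM and fresh replicate 2 had 0.732 FPKM, the highest value of the 8.

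Ier3, a stress-induced gene that modulates ERK signalling and cell survival (chromosome 17, 35821684 to 35822923), was uniformly low in melatonin-vitrified libraries and spread widely in vitrified ones. Like Jun, it reached the 1 FPKM needed for testing only in vitrified and fresh libraries. It was at 0.495, 0.451 and 0.626 FPKM in melatonin-vitrified libraries, or 4, 3 and 5 fragments, against 1.13, 5.54 and 11.7 FPKM in vitrified ones, or 9, 43 and 109 fragments. The groups did not overlap, but vitrified replicate 1 came close. The log2 fold change was -1.89 ± 0.55 (SE) and did not pass (limma adjusted p = 0.198). Over the 17 other settings in which Ier3 was tested it lay between -2.81 and -1.30, with adjusted p from 0.047 to 0.472. Only 1 of them called it, the fit without vitrified replicate 1 (-2.58, adjusted p = 0.047).

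Ier2, a nuclear protein of the early response (chromosome 8, 84661331 to 84662852), was the most abundant member in melatonin-vitrified embryos. Its values were 91.2, 104.6 and 108 FPKM there, against 100.03, 68.4 and 78.9 FPKM in vitrified libraries, with overlap (log2 fold change 0.31 ± 0.29, SE, limma adjusted p = 0.653). Klf6, a Kruppel-like zinc finger factor (chromosome 13, 5861482 to 5870394), was at 75.0, 50.5 and 55.8 FPKM in melatonin-vitrified libraries, against 93.9, 68.2 and 84.9 FPKM in vitrified ones. One melatonin-vitrified library overlapped the vitrified range (log2 fold change -0.45 ± 0.20, SE, adjusted p = 0.333). Myc, which drives growth and ribosome synthesis (chromosome 15, 61985391 to 61990374), was at 3.71, 7.98 and 8.02 FPKM in melatonin-vitrified libraries, against 3.15, 10.8 and 9.03 FPKM in vitrified ones. Each of these groups held 1 low library, and the difference was -0.12 ± 0.40 (SE, log2, adjusted p = 0.910).

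By mean level, the order in melatonin-vitrified embryos was Ier2, Klf6, Jund, Junb, Myc, Atf3, Fos, Ier3, Jun and Egr1. In vitrified embryos it was Jund, Ier2, Klf6, Junb, Myc, Ier3, Jun, Atf3, Fos and Egr1, and in fresh ones Ier2, Klf6, Jund, Junb, Myc, Ier3, Atf3, Jun, Fos and Egr1. Many neighbours lay within their spread. In vitrified libraries Jund (105 ± 28.6 FPKM), Ier2 (82.4 ± 16.1) and Klf6 (82.3 ± 13.0) overlapped, and in melatonin-vitrified ones Atf3, Fos, Ier3 and Jun all had values between 0.176 and 1.04 FPKM.

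As a set, 7 of the 9 tested members had a log2 fold change below 0 and 2 above in this comparison, with a median of -0.32 against -0.05 over all tested genes. In 3 of the 9 (Jun, Jund and Ier3) all melatonin-vitrified libraries lay below all vitrified ones, and 0 showed the opposite. Over all tested genes the shares were 15.4% lower and 9.3% higher, 24.7% in either direction. At an unadjusted p below 0.05 there were 4 of 9 members, all lower, against 14.8% of all tested genes.

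**Figure D4:**
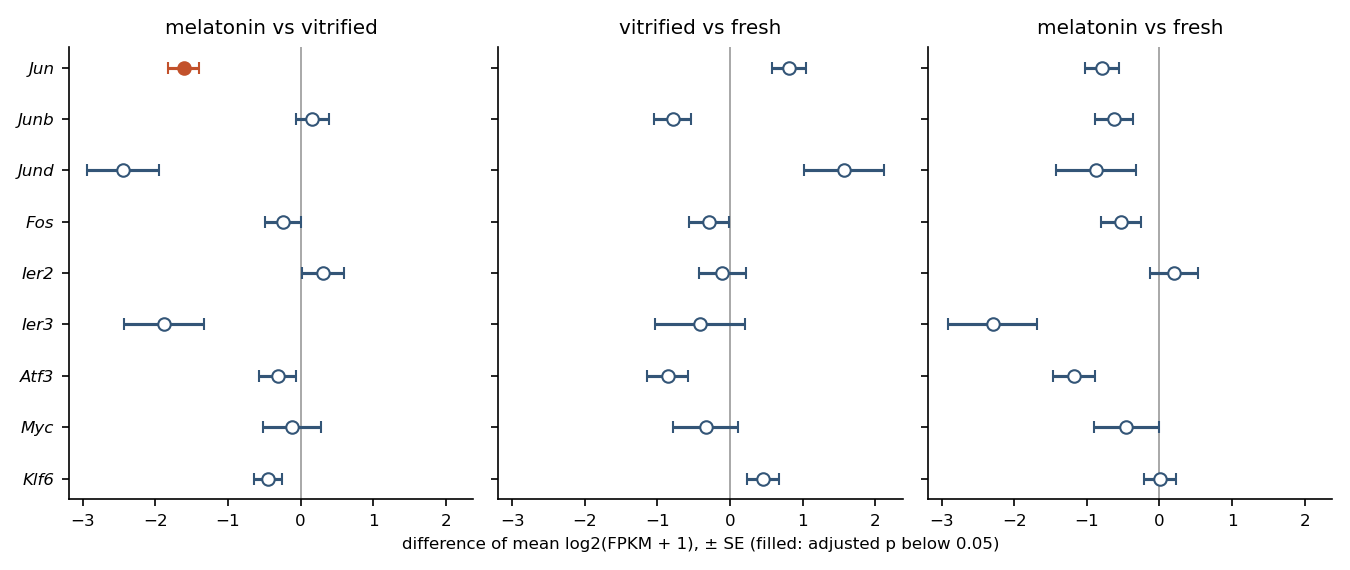
Log2 fold changes on the scale of log2(FPKM + 1), with SE bars, on the horizontal axis for the 9 tested genes in the 3 comparisons; filled points have an adjusted p below 0.05. The filled point is Jun between melatonin-vitrified and vitrified embryos, at -1.61.

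Vitrified embryos were compared with fresh ones to ask what freezing and thawing change. Of the 9 tested members, 0 were called, against 0.865% of all tested genes (0.762% higher and 0.102% lower; 93 genes, 82 higher and 11 lower; 3 higher and 4 lower with median ratio scaling, 2 higher and 3 lower with quantile normalization). The median of all tested genes lay 0.14 above 0 (-0.02 with median ratio scaling), so differences are read against that shift. Jun was at 2.99, 3.84 and 2.41 FPKM in vitrified and at 1.29 FPKM in both fresh libraries, without overlap. The log2 fold change was 0.82 ± 0.23 (SE) and did not pass (limma adjusted p = 0.0975). Jun was the single member with no overlap in the higher direction, where 26.4% of all tested genes had none.

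Junb was at 10.2, 17.98 and 14.6 FPKM in vitrified libraries, against 19.7 and 31.1 FPKM in fresh ones, a log2 fold change of -0.79 ± 0.26 (SE, limma adjusted p = 0.133). Atf3 was at 0.778, 1.48 and 0.666 FPKM in vitrified libraries, against 3.04 and 2.08 FPKM in fresh ones (-0.86 ± 0.29, SE, adjusted p = 0.138). These were the 2 members that lay lower without overlap, where 10.6% of all tested genes did; 37.0% had no overlap in either direction.

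Jund depended on the choice of fresh library. Its log2 fold change was 1.57 ± 0.56 (SE, limma adjusted p = 0.157) with both, 2.77 without fresh replicate 1 and 0.37 without fresh replicate 2. Ier3 was at 1.13, 5.54 and 11.7 FPKM in vitrified libraries, against 9.64 and 4.26 FPKM in fresh ones, and overlapped. Ier2 was at 68.4 to 100.03 FPKM in vitrified libraries, all within the range of the fresh ones (55.3 and 139 FPKM in replicates 1 and 2). Klf6 was at 68.2 to 93.9 FPKM in vitrified libraries, against 51.3 and 69.0 FPKM in fresh ones, and its difference was 0.45 ± 0.22 (SE, log2, adjusted p = 0.286). Myc (3.15 to 10.8 FPKM in vitrified, 10.0 and 8.00 FPKM in fresh libraries) and Fos (0.546 to 1.43 FPKM in vitrified, 0.844 and 1.68 FPKM in fresh libraries) overlapped too, with differences of -0.34 ± 0.44 and -0.29 ± 0.28 (SE, log2). In all, 3 members had differences above 0 and 6 below, with a median of -0.29. At an unadjusted p below 0.05 there were 4 members, 2 higher and 2 lower, against 20.2% of all tested genes.

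Melatonin-vitrified embryos were also set against fresh ones, which share the fresh and melatonin-vitrified libraries with the comparisons above. With limma, 0 members and 0 of all tested genes (0.0%) passed. At an unadjusted p below 0.05 there were 4 members, all lower, against 18.5% of all tested genes (1985 genes). In 5 of the 9 members (Jun, Junb, Fos, Ier3 and Atf3) all melatonin-vitrified libraries lay below both fresh ones, against 13.5% of all tested genes. The opposite held for 0 members and 20.8% of all tested genes, and 34.3% had no overlap in either direction. Among the 5, Jun, Fos, Ier3 and Atf3 had only 3 to 16 fragments in melatonin-vitrified libraries, so counting error bears on this count. Ier3 had the largest difference, 0.524 ± 0.0909 FPKM in melatonin-vitrified (SD, n = 3) and 6.95 ± 3.81 FPKM in fresh embryos (SD, n = 2), a log2 fold change of -2.30 ± 0.62 (SE, limma adjusted p = 0.146). Atf3 averaged 0.589 ± 0.390 FPKM in melatonin-vitrified and 2.56 ± 0.682 FPKM in fresh embryos (SD; -1.18 ± 0.29, SE, adjusted p = 0.141). Jun, at 0.328 ± 0.157 FPKM in melatonin-vitrified and 1.29 ± 0.00565 FPKM in fresh embryos, gave -0.79 ± 0.23 (SE, adjusted p = 0.161). Junb gave -0.63 ± 0.26 and Fos -0.53 ± 0.28. Klf6 was at 60.4 ± 12.9 FPKM in melatonin-vitrified and 60.2 ± 12.5 FPKM in fresh embryos, with a difference of 0.00174 ± 0.221 (SE, log2). Jund gave -0.87 ± 0.56 with both fresh libraries, -2.07 (adjusted p = 0.0171) without fresh replicate 2 and 0.33 without fresh replicate 1.

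The members did not vary as 1 block. Over the 8 libraries the Pearson correlation of log2(FPKM + 1) was 0.807 between Jun and Jund, 0.62 between Jun and Ier3, 0.535 between Jun and Klf6, and -0.14 between Jun and Junb. Junb and Jund had -0.497. These are descriptions over 8 libraries in 3 groups and share the library scaling. Among 5166 tested genes with a mean of at least 5 FPKM, those most like Jun were Ddx39b (0.985), an RNA helicase of mRNA export, Ninj1 (0.96), a protein of membrane rupture, Ube2h (0.952), a ubiquitin-conjugating enzyme, Pgam1 (0.951), a glycolytic enzyme, Hk2 (0.942), which starts glycolysis, and Tusc3 (0.938), a subunit of the oligosaccharyltransferase. These genes were chosen for following Jun over the same libraries, so their order of groups is no separate result. Ddx39b was at 16.1 to 18.1 FPKM in melatonin-vitrified libraries, against 28.0 to 30.4 FPKM in vitrified and 22.9 and 20.8 FPKM in fresh libraries. Hk2 passed between melatonin-vitrified and vitrified embryos (-1.40, limma adjusted p = 0.0172), and the other 5 did not (adjusted p from 0.0802 to 0.132). The Hk2 call held in 14 of 18 other settings. It was lost with either replicate block and without melatonin-vitrified replicate 1 or 3 (adjusted p from 0.0656 to 0.197 in these). Hk2 also passed between vitrified and fresh embryos (1.17, limma adjusted p = 0.0394). That call held in 4 of the 10 other settings that kept all libraries.

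**Figure D5:**
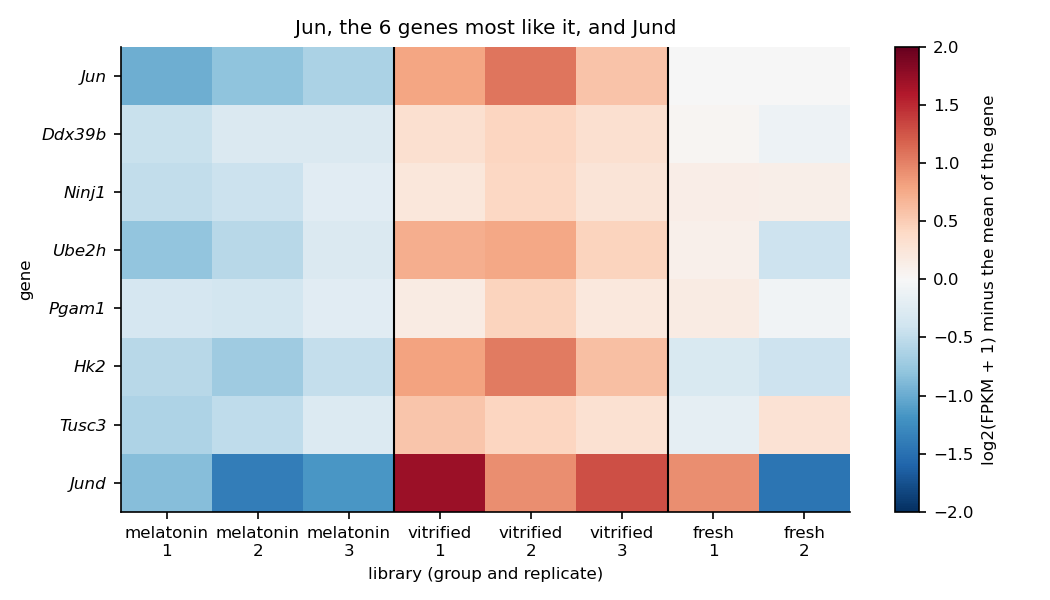
Level of Jun, the 6 genes most like it and Jund (rows) in each library (columns, by group), as log2(FPKM + 1) minus the gene's mean over the 8 libraries. Jun is lowest in the 3 melatonin-vitrified libraries and highest in the 3 vitrified ones, while Jund is high in fresh replicate 1 and low in fresh replicate 2.

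The wider pathway was read from 10 lists that hold 139 tested genes, of which 1 was called in any comparison. Over all tested genes 0.139% were called between melatonin-vitrified and vitrified, 0.865% between vitrified and fresh, and 0.0% between melatonin-vitrified and fresh embryos. The few calls in lists of this size are near those shares. Under 5 of the 18 other settings 9 further genes of these lists were called: Klf2 and Hspd1 with GC and length trends removed, Plk3 and Zfp36l2 in fits of the 2 groups compared, and Klf2, Mapk14, Parn, Max, Zfp36l2, Hras, Cnot1 or Plk3 without fresh replicate 1, fresh replicate 2 or melatonin-vitrified replicate 2. These further calls went in both directions. Plk3, another immediate early gene, was lower in vitrified than in fresh embryos (-2.09). Without melatonin-vitrified replicate 2 it was higher in melatonin-vitrified than in vitrified embryos (1.96), where Zfp36l2 was lower (-1.33, fit of the 2 groups). In the list of MAP kinase cascades, which phosphorylate JUN and the factors on immediate early promoters, 0 of 24 tested members passed in any of the 3 comparisons, with medians of -0.05 between melatonin-vitrified and vitrified, 0.11 between vitrified and fresh, and 0.16 between melatonin-vitrified and fresh embryos. The p38 kinase Mapk14 was at 12.5, 10.0 and 13.9 FPKM in vitrified libraries, against 7.21 and 1.14 FPKM in fresh ones (1.64 ± 0.46, SE, limma adjusted p = 0.0930). Map2k2, an activator of ERK, was at 18.5, 14.2 and 15.1 FPKM in melatonin-vitrified libraries, against 21.7, 18.6 and 21.4 FPKM in vitrified ones (-0.35 ± 0.16, SE, adjusted p = 0.345). Among the transcription factors that act on these promoters, 0 of 9 passed in any comparison, with Ets2 at 3.66, 2.93 and 1.74 FPKM in melatonin-vitrified and 1.30, 1.84 and 1.46 FPKM in vitrified libraries (adjusted p = 0.336). Creb1 had the smallest p between melatonin-vitrified and fresh embryos (0.42 ± 0.26, SE, adjusted p = 0.408).

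Of 12 other AP-1 subunits and partners 5 were tested and 0 passed. Jdp2, a repressor that pairs with JUN proteins, was at 11.1, 4.44 and 14.3 FPKM in melatonin-vitrified and 12.4, 12.1 and 14.4 FPKM in vitrified libraries, against 35.6 and 22.8 FPKM in fresh ones (adjusted p = 0.141 and 0.161 against fresh). Mafk, a small MAF protein, was at 0.513 to 1.75 FPKM over all libraries. Of 31 other immediate early genes tested 0 passed, with medians of -0.30 between melatonin-vitrified and vitrified, 0.18 between vitrified and fresh, and -0.03 between melatonin-vitrified and fresh embryos. Btg1, an antiproliferative gene, was at 4.53, 6.38 and 7.21 FPKM in melatonin-vitrified libraries, against 11.5, 13.3 and 16.6 FPKM in vitrified ones and 6.55 and 4.43 FPKM in fresh ones. Its vitrified libraries lay above all others, without passing (limma adjusted p = 0.109 between melatonin-vitrified and vitrified, 0.0574 between vitrified and fresh). Dusp5, a nuclear phosphatase of ERK, was at 0.0566, 0.138 and 0.343 FPKM in melatonin-vitrified, 0.403, 1.18 and 0.985 FPKM in vitrified, and 1.78 and 1.74 FPKM in fresh libraries (adjusted p = 0.117 between melatonin-vitrified and fresh).

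Proteins that bind AU-rich elements and degrade mRNA showed 0 of 17 calls in each comparison. Zfp36l2, which directs such mRNAs to decay, was at 2.10, 4.05 and 3.41 FPKM in melatonin-vitrified libraries, against 7.50, 10.4 and 10.3 FPKM in vitrified ones and 4.11 and 1.80 FPKM in fresh ones (limma adjusted p = 0.109 between melatonin-vitrified and vitrified, 0.0578 between vitrified and fresh). Pan2, a deadenylase subunit, had a difference of 0.77 ± 0.21 (SE, log2) between melatonin-vitrified and fresh embryos (adjusted p = 0.148). In the list of ubiquitin ligases and modifiers that act on JUN and MYC proteins, 0 of 9 passed. Aurka, a mitotic kinase that stabilizes MYC proteins, was at 171, 246 and 186 FPKM in melatonin-vitrified libraries, against 114, 148 and 111 FPKM in vitrified ones (adjusted p = 0.164). Usp28, a deubiquitinase of MYC, was at 4.05, 3.35 and 3.46 FPKM in vitrified libraries, against 1.49 and 1.47 FPKM in fresh ones (adjusted p = 0.0697).

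Around Myc, 0 of 9 tested genes of the MAX network passed. Max, its obligate partner, was at 5.82, 9.09 and 8.63 FPKM in vitrified libraries, against 22.1 and 12.5 FPKM in fresh ones (-1.02 ± 0.28, SE, limma adjusted p = 0.0901). Mlx, a MAX-like factor, was at 17.3, 17.4 and 21.2 FPKM in melatonin-vitrified libraries, against 37.6 and 25.8 FPKM in fresh ones (adjusted p = 0.168), and Mga, a MAX partner, at 1.65, 1.38 and 1.33 FPKM in melatonin-vitrified libraries, against 1.56, 2.99 and 2.13 FPKM in vitrified ones (adjusted p = 0.441). Of 19 MYC targets, 15 had differences below 0 between melatonin-vitrified and vitrified embryos and 0 passed, with a median of -0.22 against -0.05 over all tested genes. The nucleolar methyltransferase Fbl was at 46.5, 46.5 and 48.7 FPKM in melatonin-vitrified libraries, against 70.9, 73.3 and 80.8 FPKM in vitrified ones (-0.65 ± 0.13, SE, adjusted p = 0.109). The mitochondrial chaperone Hspd1 had a difference of 0.74 ± 0.17 between vitrified and fresh embryos (adjusted p = 0.0663), and lactate dehydrogenase Ldha one of -1.07 ± 0.31 between melatonin-vitrified and fresh embryos (adjusted p = 0.155).

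Among 9 tested AP-1 targets, Spp1, the secreted protein osteopontin, rose in vitrified embryos. It was at 196, 285 and 229 FPKM in vitrified libraries, against 53.0 and 109 FPKM in fresh ones, a log2 fold change of 1.61 ± 0.30 (SE, limma adjusted p = 0.0480). The call was at the edge of the threshold: it held in 4 of 18 other settings, with adjusted p from 0.0123 to 0.138 and log2 fold changes of 1.10 to 2.12, and of the 8 fits without a single library it held in 1, that without fresh replicate 2. In melatonin-vitrified libraries it was at 259, 179 and 255 FPKM, so this gene did not share the low values of Jun there. Timp1, an inhibitor of matrix proteases, was at 6.07, 7.87 and 11.8 FPKM in melatonin-vitrified libraries, against 10.9, 26.1 and 20.1 FPKM in vitrified ones (adjusted p = 0.225). Of 12 other Kruppel-like factors tested 0 passed. Klf13 was at 2.61, 2.00 and 2.59 FPKM in melatonin-vitrified libraries, against 6.29, 4.87 and 6.05 FPKM in vitrified ones (-0.99 ± 0.22, SE, adjusted p = 0.121), and Klf2 at 9.10, 15.6 and 16.4 FPKM in vitrified libraries, against 6.17 and 1.40 FPKM in fresh ones (1.78 ± 0.43, SE, adjusted p = 0.0697). Klf8 had a difference of 0.61 ± 0.22 between melatonin-vitrified and fresh embryos (adjusted p = 0.205).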

How the data were processed

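Gene expression was measured by RNA sequencing in 8 libraries of mouse blastocysts. The authors deposited 1 table of FPKM per gene and library, on genome build mm10 (GRCm38) per the submitters' processing notes; which aligner, counter, annotation and filters made it, and whether strand was used, is not stated. The series text names Smart-seq2, but the labels' protocol describes a stranded poly(A) library. Groups and replicate numbers follow the sample descriptions. Gene identifiers were matched to GENCODE M21 for 19577 genes (99.4%).

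All 8 libraries entered a single limma fit (version 3.58.1, R 4.3.3) of log2(FPKM + 1), with the prior variance following expression level. The 10755 genes tested had 1 FPKM or more in 2 or more libraries. Genes were called, in either direction, where the p adjusted by Benjamini and Hochberg over these was under 0.05. Fragments per library were estimated as the step of which FPKM times length is a whole multiple (within 0.1 for 94.6% to 97.2% of low values, where chance gives 20%). The fit was tested on simulated data with independent normal errors. Changes were planted in 200 genes, all with higher mean levels than Jun, Ier3, Fos and Atf3. That test therefore does not cover genes as low as these. Tables and figures used Python 3.11.15, pandas 2.3.3, numpy 2.4.6, scipy 1.17.1 and matplotlib 3.10.9.

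Members, related lists and tests were chosen with earlier results of these data known. Named beside the members are, from each related list and comparison, the genes that passed and the gene with the smallest p, and the 6 named genes most correlated with Jun.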

Additional observations from a re-analysis of the deposited data

How the results depend on the processing

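The 93 calls between vitrified and fresh embryos became 7 with median ratio scaling, 5 with quantile normalization, 1 without a filter, 10 in a fit of these 2 groups, and 277 with GC and length trends removed (a setting added after seeing the data). With replicate numbers as a block they were 1 (biosample number) and 39 (title number). The 15 calls between melatonin-vitrified and vitrified embryos became 9 with quantile normalization, 6 with a pseudocount of 0.1 and 69 in a fit of the 2 groups, and 1 (biosample number) and 0 (title number) with a block. The 0 calls between melatonin-vitrified and fresh embryos became 5 with a pseudocount of 0.1, 2 in a fit of the 2 groups and 44 with the title number as a block. Leaving out single libraries gave 2 to 433, 1 to 68 and 0 to 565 calls in these 3 comparisons, the highest without fresh replicate 2. The causes were not tested.

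The 1 member called between melatonin-vitrified and vitrified embryos, Jun, became 0 with quantile normalization (adjusted p = 0.0506), without a filter (0.0521), with a pseudocount of 0.1 (0.0529), with a block (0.0994 by biosample number, 0.286 by title number) and, since Jun was then not tested, at a mean of at least 5 FPKM. It became 2, Jun and Jund, in a fit of the 2 groups, and 0 to 2 without single libraries; without vitrified replicate 1 the 1 called member was Ier3. In each comparison with fresh embryos it was 0 to 1 without single libraries, the 1 being Jund. Deviations from the group mean in same-numbered libraries had correlations of -0.115 to 0.121 by biosample number and -0.115 to 0.039 by title number. In groups this small the deviations are tied to each other, so these correlations cannot decide whether the numbers pair the libraries.

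Of members that were not called, some changed direction. Klf6 between melatonin-vitrified and fresh embryos was -0.12 with median ratio scaling and -0.0756 with GC and length trends removed. With the title number as a block, Fos and Ier2 were 0.30 and 0.75 between vitrified and fresh embryos and Myc 0.48 between melatonin-vitrified and vitrified embryos. Without single libraries the ranges were, for Ier2, -0.76 to 0.55 between vitrified and fresh and -0.45 to 0.86 between melatonin-vitrified and fresh. Between vitrified and fresh they were -1.0015 to 0.29 for Ier3 and -0.62 to 0.13 for Myc. Between melatonin-vitrified and vitrified they were -0.0453 to 0.33 for Junb and -0.58 to 0.19 for Myc. Between melatonin-vitrified and fresh they were -2.07 to 0.33 for Jund and -0.21 to 0.21 for Klf6. Jun and Atf3 kept their direction in each comparison under all settings in which they were tested. Fos and Egr1 had under 30 fragments in every library (7 to 24 and 0 to 19), and Atf3 in all but fresh replicate 1. Jun and Ier3 had under 30 in every melatonin-vitrified library and in fresh replicate 2, and Ier3 also in vitrified replicate 1. Such low numbers limit the precision of these genes. Exact permutation tests of single genes could not give a p below 0.1 at these group sizes and were not used.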
